A study of Rattus norvegicus with 14 samples.

Results

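Window-poor megabases are the 1 Mb stretches of the rat autosomes in which reduced representation bisulfite sequencing (RRBS) gave 30 or fewer windows of 1 kb. Each window of chromosomes 1 to 20 was assigned to a 1 Mb bin by its start, and all windows of the table were counted per bin, so that methylation levels had no part in the choice. By this rule 648 of 2472 autosomal bins (26.2%) were window-poor. They held 13461 windows, which is 7.14% of the 188511 autosomal windows and 6.93% of the 194367 windows in all. The median was 21 windows per window-poor bin, against 57 over all autosomal bins. Of the 648 bins, 288 had 20 or fewer windows and 29 had 10 or fewer. The count reflects where windows were obtained. The CpG content of the underlying sequence was not analysed here.

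DNA methylation in mammals sits mainly on cytosines of CpG pairs. Methylated cytosine tends to mutate to thymine, so most of the genome has lost CpGs and the remaining ones are largely methylated, while CpG islands, often at promoters, kept their CpGs and are mostly free of methylation. RRBS cuts DNA with MspI at CCGG and reads short fragments, so it samples CpG islands densely and gene-poor, CpG-poor sequence sparsely. Large CpG-poor domains that replicate late are known from dividing cells for intermediate methylation that declines with cell division. Most nuclei of a muscle fibre no longer divide.

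The samples were left soleus, a slow-twitch muscle of the hindlimb used in standing, from female rats aged 23 to 24 months of the 44th generation of 2 lines bred from the genetically heterogeneous N:NIH stock. One line was selected for high running capacity (HCR, n = 6) and the other for low running capacity (LCR, n = 8), with chow and water freely available, and all samples were taken at baseline. Whether every sample is a separate rat is not said in the labels, and p-values therefore refer to the spread of these samples only, which may be technical. Whole muscle holds several cell types, and a difference in their shares cannot be told apart from a difference within a cell type. The line and everything bred with it, DNA sequence included, cannot be told apart either.

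Levels were percentages per window with no read counts, so the depth behind each value was unknown. Of the window-poor windows, 8358 (62.1%) had a value in all 14 samples, against 70.5% of the windows in the other autosomal bins. These 8358 windows were used throughout unless stated. The share of window-poor windows without a value was lowest in LCR replicate 1, at 1.57%, and highest in LCR replicate 7, at 15.5%. In each of the 14 samples it was larger than in the other autosomal bins, on average by 1.45 percentage points (SE 0.318; p = 0.000122 in a two-sided exact sign-flip permutation test, its smallest possible value). All samples share the same windows, so sign-flip p-values here and below do not refer to the spread between windows. The share was 6.30% ± 3.39 for HCR (SD, n = 6) against 6.62% ± 4.75 for LCR (SD, n = 8), a difference smaller than either SD (exact permutation test, two-sided, p = 0.894).

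Window-poor megabases were more methylated than the rest of the autosomes in every sample. Their windows averaged 49.5% ± 0.757 (SD, n = 14), with samples from 48.1% to 50.7%. Windows of the other autosomal bins averaged 34.0% ± 1.16, with samples from 31.9% to 35.8%, so the 2 sets of values did not overlap. The gap within a sample was 15.5 percentage points (SE 0.125) and lay between 14.9 and 16.1 points (p = 0.000122, again the smallest possible, in the same exact permutation test). It was larger for these complete windows than for the rest. Windows with a value missing in some sample averaged 55.9% in window-poor bins and 49.2% in the others, and over all windows of the table the gap was 13.8 points.

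The gap came with fewer unmethylated and more strongly methylated windows. By the levels of each sample, windows under 10%, the range typical of CpG islands, made up 13.9% ± 0.592 (SD, n = 14) of window-poor windows and 29.4% ± 1.30 of the others. Windows of 10 to under 30% were also scarcer, at 8.54% ± 0.772 against 18.4% ± 0.835. The class of 30 to under 50% was nearly as frequent in both, at 19.5% ± 0.396 and 18.9% ± 0.320. Windows of 50 to under 70% were the largest class of the window-poor bins, at 34.5% ± 1.08 against 22.4% ± 1.30. Windows at 70% or more made up 23.6% ± 1.05 against 10.97% ± 0.762. Each of the 5 differences kept its sign in 14 of 14 samples (exact sign-flip permutation test, adjusted p = 0.000122 for each over 5 classes). These p-values refer to repetition across samples that share the same windows, and the spread between windows was not tested. The differences were -15.5 points (SE 0.207) for the class under 10% and 12.6 points (SE 0.153) for the class at 70% or more.

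**Figure D1:**
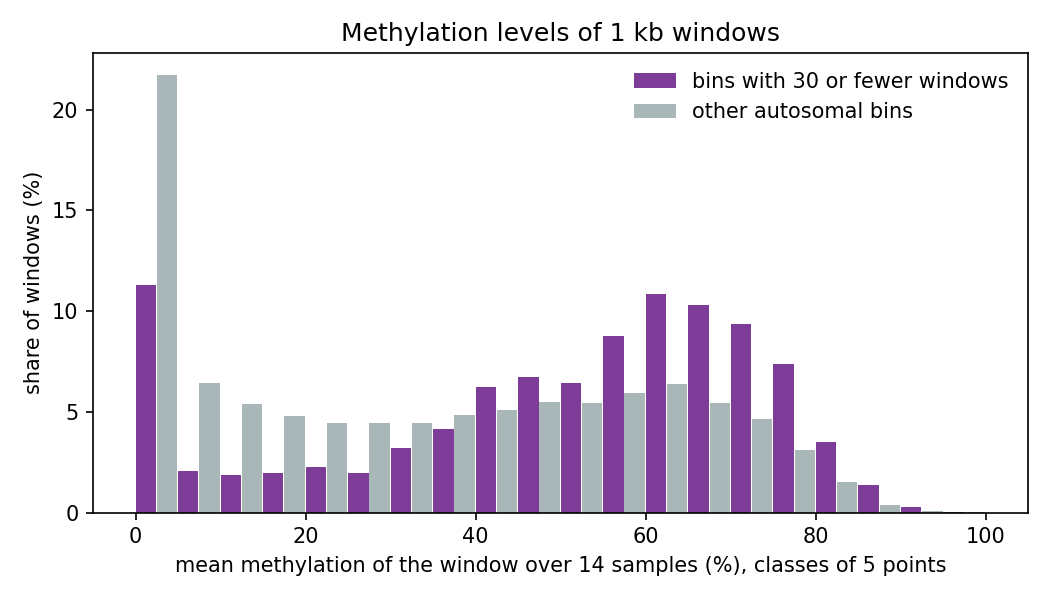
Share of windows (y axis, %) by mean methylation over the 14 samples (x axis, in classes of 5 percentage points) for window-poor bins (purple) and other autosomal bins (grey). Windows under 5% made up 11.3% of the window-poor set and 21.7% of the others, and the window-poor set had a broad peak between 55% and 75%.

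From 11 windows per bin upwards, levels declined as windows became more frequent. Bins with 11 to 20 windows had the highest mean, 53.1%, with samples from 51.5% to 54.4%. Bins with 21 to 30 windows stood at 47.9%, bins with 31 to 40 at 43.8%, bins with 41 to 60 at 37.8% and bins with over 150 at 32.2%. The sparsest bins, with 1 to 10 windows, had 48.7% over only 130 windows. The share of windows with a mean under 10% moved the other way, from 8.91% in bins with 11 to 20 windows to 15.5% in those with 21 to 30 and 29.4% in those with over 150. There was no step at the limit of the rule: bins with 28 to 30 windows had a median level of 46.2% (86 bins) and bins with 31 to 33 windows one of 45.3% (84 bins).

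**Figure D2:**
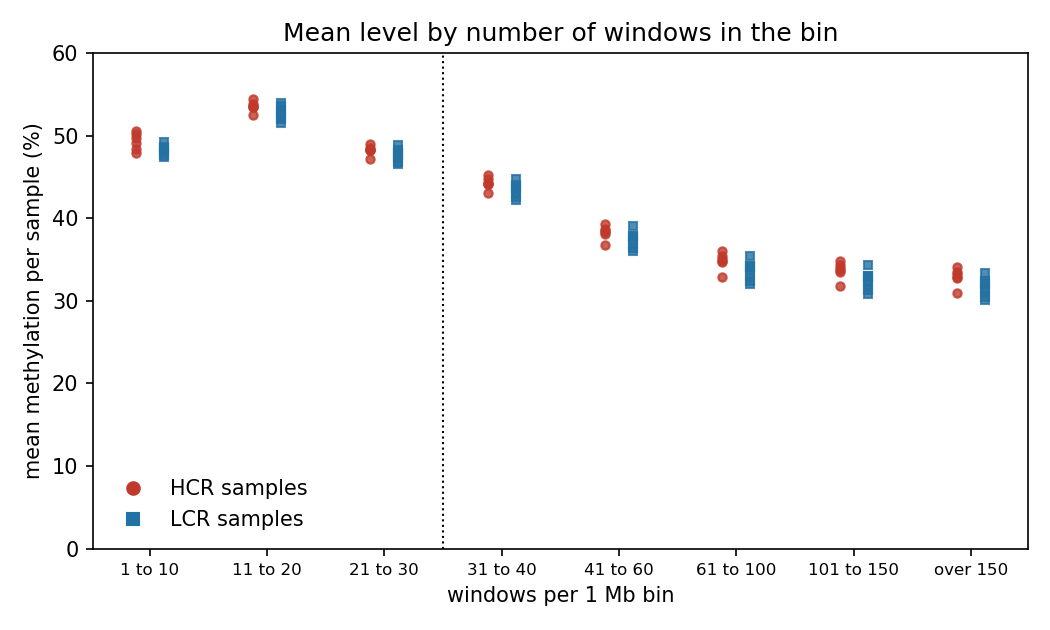
Mean methylation of each sample (y axis, %) over windows grouped by the number of windows in their 1 Mb bin (x axis), with HCR samples as red circles and LCR samples as blue squares. The dotted line marks the limit of 30 windows. Each sample was highest at 11 to 20 windows per bin, where samples lay between 51.5% and 54.4%, and lowest at over 150.

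Window-poor bins lay on 19 of the 20 autosomes. Chromosome 2 had the most, 98 of 250 bins (39.2%), and chromosome 14 nearly the same share, 40 of 105 (38.1%). Chromosome 10 had 10 of 108 (9.26%) and chromosome 12 had 0 of 47. On each of the 19 chromosomes the window-poor windows had a higher mean than the other windows of that chromosome. Their means ran from 44.2% on chromosome 10 to 58.0% on chromosome 13, where the other windows stood at 30.8% and 36.5%. Of the 648 bins, 13 were the last bin of a chromosome, which the chromosome end can cut short, so that a low count there need not mean a low density. They held 191 windows.

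Many window-poor bins were neighbours. They formed 268 uninterrupted stretches, of which 127 were single bins and 34 were 5 bins or longer, and these 34 held 241 bins (37.2%). The longest ran from 95000001 to 109000000 on chromosome 2 (rn7), with 14 bins and 312 windows. Its mean was 43.4%, with samples from 41.9% to 44.2%, and 22.7% of its windows were under 10%. The next, at 63000001 to 75000000 on the same chromosome, had 12 bins and 186 windows. Its mean was 58.0%, with samples from 56.7% to 59.3%, and 2.06% of its windows were under 10%. The samples' values of these stretches did not overlap. All samples share the windows of a stretch, 211 and 97 with a value in all samples, and the spread between windows was not tested. Over the 34 stretches of 5 or more bins the means ranged from 39.7% to 60.4%, with a median of 52.2%.

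Bin levels were higher and more scattered than elsewhere. Among the 633 window-poor bins with at least 5 windows measured in all samples, the median level was 51.5%, with quartiles of 43.3% and 59.6%. The other 1824 autosomal bins had a median of 34.7% and quartiles of 30.5% and 40.04%. The SD between bins was 11.1 points against 8.54. A window-poor bin averaged a median of 13 such windows and another bin 56, and a mean over fewer windows is noisier. The part of this in the wider scatter was not tested. Levels over 60% were found in 145 window-poor bins (22.9%) and 39 others (2.14%), and levels under 30% in 25 (3.95%) and 418 (22.9%). Within a bin, the window means had a median SD of 21.6 points in window-poor bins and 25.3 in the others.

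At the top, among bins with at least 10 such windows, stood a bin at 24000001 to 25000000 on chromosome 13. It averaged 71.6%, with single samples between 68.3% and 74.6%. The next were at 25000001 to 26000000 on chromosome 3 with 71.5% and at 53000001 to 54000000 on chromosome 5 with 70.7%. At the bottom stood a bin at 50000001 to 51000000 on chromosome 9 with 18.9%, where samples ranged from 16.8% to 21.2%. It was followed by 98000001 to 99000000 on chromosome 7 with 19.6% and 42000001 to 43000000 on chromosome 7 with 22.4%. The highest and lowest bins were thus more than 40 points apart in all samples. None of these 6 bins passed the test of a line difference (limma, adjusted p from 0.0974 to 0.938).

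As the rule largely fixes, window-poor windows had few others close by. The median distance to the start of the next window was 10000 bp, against 2000 bp in the other autosomal bins. Of the window-poor windows 27.3% had an adjacent window and 52.2% had none within 10 kb, against 47.8% and 12.5% elsewhere. Those with an adjacent window averaged 42.6% and included both extremes: 30.9% of them were under 10% and 25.6% were at 70% or more. In the other autosomal bins 40.97% of adjacent windows were under 10% and 8.06% at 70% or more. Window-poor windows at least 10 kb from the next averaged 52.9%, with samples from 51.4% to 54.1%, and 5.08% of them were under 10%.

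Uniformly low windows were scarcer and uniformly high windows more frequent than in the other autosomal bins. A level under 10% in all 14 samples was found in 932 (11.2%), against 21.9% of the other autosomal windows. A level of at least 70% in all 14 samples was found in 720 (8.61%), against 3.48%. Means between 40% and 60% were found in 2351 (28.1%), against 21.9%.

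The spread between samples of one line was close to that elsewhere. The median SD within lines was 4.76 points in window-poor windows and 4.68 in the others. At matched levels the window-poor windows had slightly smaller SDs in the middle classes, 6.10 against 7.05 points for means of 30 to under 50% and 5.28 against 5.73 for 50 to under 70%. In windows of 10 to under 30% it was 6.29 against 5.85, and in windows of at least 70% 3.94 against 3.88. An SD over 15 points was found in 0.610% of window-poor windows and 0.977% of the others. HCR and LCR had median SDs of 4.41 and 4.45 points. These values describe the spread and were not tested.

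The 2 lines had nearly the same mean methylation in window-poor megabases. HCR samples had a lowest value of 48.8%, a median of 49.9% and a highest of 50.7%, and LCR samples 48.1%, 49.3% and 50.4%. The samples of the lines overlapped over most of their range. HCR had a mean of 49.9% ± 0.595 (SD, n = 6) and LCR one of 49.2% ± 0.769 (SD, n = 8). Their difference of 0.669 points (SE 0.365) missed the threshold of an exact permutation test (two-sided, 3003 splits, p = 0.104), and values from -0.161 to 1.495 points were not rejected at 0.05. It passed without HCR replicate 3 (0.874 points, exact p = 0.0404), without LCR replicate 1 (0.840 points, exact p = 0.0367) and when each sample's count of windows lacking a value was a covariate (0.688 points, permutation p = 0.0403). Over all alternatives that kept the deposited scale p ran up to 0.313.

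The line difference was smaller in window-poor bins than in the other autosomal bins, by an amount at the edge of the test. In the other bins HCR exceeded LCR by 1.16 points. The gap in level between window-poor and other bins was therefore narrower in HCR, at 15.2 points ± 0.438 (SD, n = 6), than in LCR, at 15.7 ± 0.392 (SD, n = 8). The difference of -0.492 points (SE 0.226) had an exact permutation p of 0.049 (two-sided, interval -0.977 to -0.0011). HCR samples had gaps from 14.9 to 16.03 points with a median of 15.1, and LCR samples from 15.1 to 16.1 with a median of 15.9. HCR replicate 3 stood among the LCR samples at 16.03, and LCR replicates 1 and 3 among the HCR samples at 15.2 and 15.1. HCR replicate 3 lacked a value in 11.9% of window-poor windows, the largest share in its line, while LCR replicates 1 and 3 lacked one in 1.57% and 2.19%. LCR replicate 4 lacked one in 2.07%, yet its gap of 15.5 points was above all HCR samples but replicate 3. Whether missing values bear on the place of these samples was not tested. With each sample's count of windows without a value over the whole table as a covariate, the line difference in the gap was -0.504 points (permutation p = 0.0117). The call was lost with a limit of 20 windows per bin (-0.322 points, exact permutation p = 0.194), with all windows of the table (-0.457, p = 0.252 by the same permutation test) and with the replicate number as a block (-0.406, exact p = 0.219). Leaving out single samples gave -0.653 to -0.421 points and exact p from 0.00932 to 0.104, and the call was lost in 11 of those 14 settings, all but those without HCR replicate 3, LCR replicate 1 or LCR replicate 3.

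**Figure D3:**
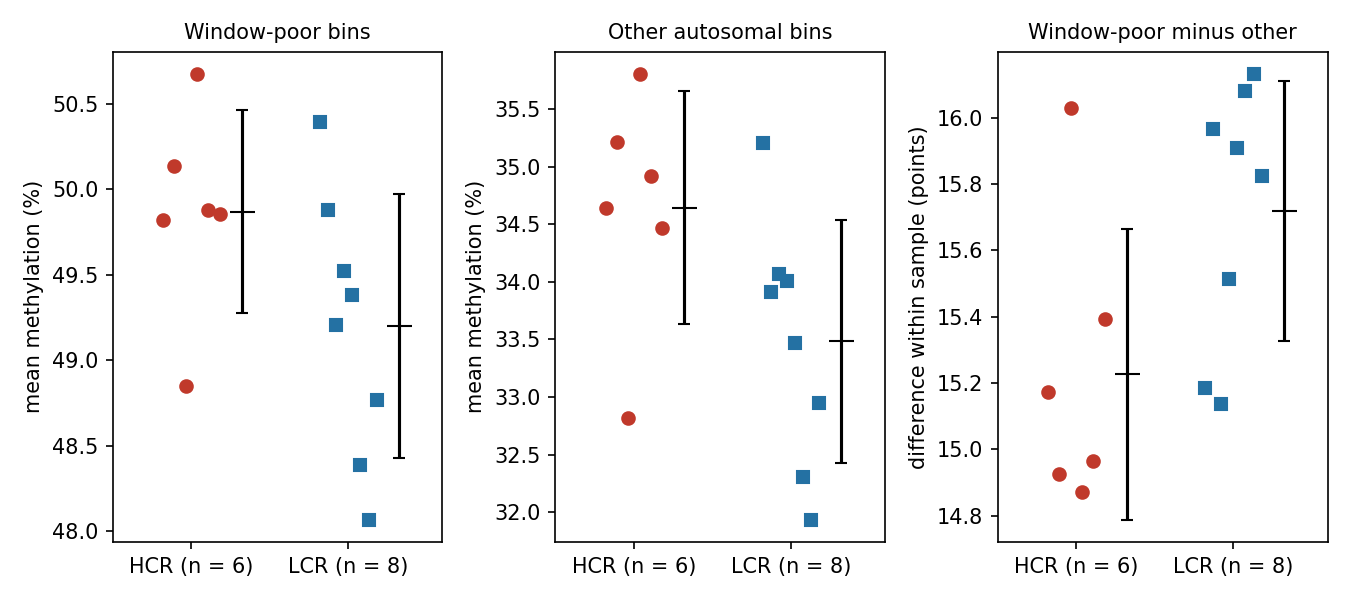
Each sample's mean methylation over window-poor bins (left) and other autosomal bins (middle), and the difference between them in percentage points (right), for HCR (red circles, n = 6) and LCR (blue squares, n = 8), with mean and SD in black. The axes do not start at 0 and differ between panels. Both lines lay near 50% in window-poor bins, and HCR replicate 3 and LCR replicates 1 and 3 were on the side of the other line in the right panel.

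On the deposited scale HCR was nominally higher in each class of level, and 1 class passed. Centring samples on their mean over all windows takes the whole-table line difference of 1.12 points from every class alike. It left -0.875 points under 10% and 0.186 at 10 to under 30%. From 30% upwards the classes then had -0.148, -0.491 and -0.631 points, and none of the 5 passed (adjusted exact permutation p from 0.306 to 0.704). The negative signs follow from this subtraction and do not show lower levels in HCR. In the 1835 window-poor windows with a mean of at least 70%, HCR samples ran from 76.7% to 77.3% with a median of 77.1%, and LCR samples from 76.2% to 77.1% with a median of 76.5%. The difference was 0.487 points (SE 0.144; exact permutation test, p = 0.00799, adjusted p = 0.040 over 5 classes), but the call was lost without any one of 9 samples, HCR replicates 1, 3, 4 and 6 and LCR replicates 3, 4, 5, 6 and 8 (adjusted exact p from 0.00874 to 0.140 over the 14 samples left out). In the 1116 windows under 10%, HCR averaged 2.91% ± 0.207 (SD, n = 6) against 2.67% ± 0.196 for LCR (SD, n = 8; exact permutation test, adjusted p = 0.110). The middle classes differed by 1.30, 0.970 and 0.627 points with adjusted exact p from 0.132 to 0.247. In the other autosomal bins the same 5 classes, from low to high, differed by 0.365, 1.80, 1.82, 1.21 and 0.746 points.

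Line differences at single windows were few, at a share somewhat above that of the whole table, and the difference between these shares was not tested. By limma on a log2 logit scale with Benjamini-Hochberg adjustment, 64 of the 8358 window-poor windows (0.766%) had an adjusted p under 0.05, where 0.569% of all 135802 windows tested did. The share called was 3 of 130 in bins with 1 to 10 windows, 0.785% at 11 to 20 and 0.722% at 21 to 30. Bins with 31 to 40 windows, just outside the rule, had 0.943% (58 of 6149). A share above that of the whole table was thus not particular to window-poor bins. Of the 64, 38 were higher and 26 lower in HCR, so that 59.4% were higher. Of all 135802 windows, 550 (0.405%) were called higher and 223 (0.164%) lower, so that 71.2% of those calls were higher. Calls lower in HCR thus made up more of the calls in window-poor bins. With each sample centred on its mean over all windows, which removes a shift of 0.10 on the log2 logit scale, the calls were 23 higher and 42 lower, so the excess of either direction depended on the scale. The size of the difference was at least 10 points in 55 and at least 25 points in 13 of the 8358 windows. Of all 135802 windows it was so in 633 (0.466%) and 129 (0.095%). Its median over the 64 windows was 15.7 points, with quartiles of 11.6 and 23.0. HCR and LCR samples did not overlap in 61 window-poor windows (0.730%), where this held for 0.71% of all windows, and 43 of these 61 were among the called. The median difference over all window-poor windows tested was 0.410 points, against 0.504 points over all windows tested.

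Called windows of window-poor bins had a median level of 59.1%, near the 56.2% of all window-poor windows, and called windows of the whole table one of 44.2%. By class, 3 of 1116 windows under 10% were called, 3 of 673 at 10 to under 30%, 14 of 1696 at 30 to under 50%, 24 of 3038 at 50 to under 70% and 20 of 1835 at 70% or more. The shares were 0.269%, 0.446%, 0.825%, 0.790% and 1.09%, where 0.244%, 0.601%, 0.784%, 0.726% and 0.571% of all windows of these levels were called. Of the 64, 18 had an adjacent window and 28 had no window within 10 kb, where 2503 and 4216 of all 8358 had. They lay in 54 bins on 14 chromosomes, 46 of these bins holding a single call. Chromosome 2 had 15 of 1230 windows tested (6 with more methylation in HCR and 9 with less), chromosome 7 had 8 of 507, chromosome 1 had 7 of 666 and chromosome 8 had 7 of 272. By share of the windows tested, chromosome 8 was thus above chromosome 2, but 3 of its 7 calls lay in 1 bin and 2 were adjacent windows. The shares called over all windows of single chromosomes were not set beside these.

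The largest differences with higher levels in HCR were found at the end of chromosome 1 and on chromosome 16. At 260517001 to 260518000 on chromosome 1, HCR samples had a lowest value of 62.3%, a median of 66.3% and a highest of 70.6%, and LCR samples 9.77%, 22.4% and 39.0%. The difference was 45.0 points (log2 logit difference 2.89, SE 0.31; limma adjusted p = 0.000376). This window and its neighbour at 260516001, where HCR averaged 80.1% and LCR 62.8% (limma adjusted p = 0.002), are in the last bin of the chromosome, whose 19 windows end at 260518000. In the window of chromosome 16, at 27213001 to 27214000, the HCR samples were at 63.5%, 75.6% and 82.8%, and LCR samples 15.4%, 26.2% and 43.7% (lowest, median and highest in this order here and below; limma adjusted p = 0.000294). The lines were fully separated in each of these 3 windows.

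Chromosomes 2 and 7 held 5 of the next 6 windows. At 75034001 to 75035000 on chromosome 7, HCR samples had 39.6%, 44.9% and 55.2%. LCR samples had 0, 0 and 39.7%, and without LCR replicate 6 the highest LCR value was 9.09% (limma adjusted p = 0.0119). Methylation of this window was thus intermediate in every HCR sample and at or near 0 in 7 of 8 LCR samples. At 80152001 to 80153000 on the same chromosome the values were 47.4%, 58.0% and 62.6% in HCR and 15.8%, 27.6% and 44.6% in LCR (limma adjusted p = 0.0028), and the highest LCR value was again that of replicate 6.

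On chromosome 2 the window at 163363001 to 163364000 had 53.3%, 55.7% and 60.4% in HCR and 15.6%, 24.0% and 33.3% in LCR (limma adjusted p = 0.000413). The window at 98727001 to 98728000 had 55.1%, 59.4% and 70% against 24.2%, 30.03% and 37.2% (limma adjusted p = 0.000122). At 95814001 to 95815000 the values were 55.6%, 69.6% and 75.6% against 31.96%, 38.2% and 49.3% (limma adjusted p = 0.00052). No HCR sample overlapped an LCR sample in these 3 windows, and the last 2 lie inside the longest window-poor stretch. The remaining one, at 9983001 to 9984000 on chromosome 9, had 54.8%, 67.7% and 71.0% in HCR and 24.7%, 39.8% and 67.9% in LCR (limma adjusted p = 0.0444). Its lines overlapped, and its call was kept in only 2 of the 14 settings that left out a sample, HCR replicate 4 or LCR replicate 1 (limma adjusted p from 0.00253 to 0.103 over the 14).

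Among windows lower in HCR, near-complete absence of methylation was seen on chromosome 2. At 86533001 to 86534000, 5 HCR samples had 0 and HCR replicate 6 had 2.88%, while LCR samples had 7.41%, 41.1% and 50% (limma adjusted p = 0.000123). At 88723001 to 88724000 HCR samples had 0, 0 and 6.52% and LCR samples 3.75%, 25.2% and 32.1% (limma adjusted p = 0.0098). In both windows the lowest LCR value was that of replicate 6, and in the second it lay within the HCR range. These were the 2 called windows with a mean under 5% in HCR and at least 20% in LCR, and the opposite was seen in 0 called window-poor windows. In the whole table there were 10 of each kind. The count of 0 hung on a single sample. At 75034001 on chromosome 7 the LCR mean was 6.38%, with LCR replicate 6 at 39.7% and the other LCR samples at 1.62% ± 3.40 (SD, n = 7), where HCR averaged 46.3%.

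The window with the largest lower level in HCR, at 95380001 to 95381000 on chromosome 2, had 0.917%, 6.47% and 26.9% in HCR and 38.9%, 51.0% and 59.3% in LCR, a difference of -41.3 points (limma adjusted p = 0.00138). It lies in the same bin as the window at 95814001, which was higher in HCR by 28.996 points, so that 1 bin held large differences of opposite sign. The window at 90959001 to 90960000 had 33.3%, 39.8% and 43.9% in HCR and 39.3%, 68.3% and 79.5% in LCR (limma adjusted p = 0.0313), with LCR replicate 6 lowest and within the HCR range. That call was kept in 4 of the 14 settings that left out a sample, LCR replicate 2, 3, 4 or 6 (limma adjusted p from 0.00128 to 0.0776).

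The last 4 windows lay on chromosomes 7, 1, 9 and 16. On chromosome 7, at 78792001 to 78793000, values were 33.3%, 38.2% and 50% in HCR and 36.4%, 72.6% and 83.6% in LCR (limma adjusted p = 0.0325). LCR replicate 6 was the lowest and the next LCR sample stood at 69.1%. The call was kept in 2 of the 14 settings that left out a sample, HCR replicate 5 or LCR replicate 6 (limma adjusted p from 0.000361 without LCR replicate 6 to 0.0789). At 249238001 to 249239000 on chromosome 1 the values were 27.2%, 36.8% and 66.6% in HCR and 61.6%, 70.9% and 75.02% in LCR (limma adjusted p = 0.014), where HCR replicate 6 was within the LCR range. The lines did not overlap in the other two. At 5845001 to 5846000 on chromosome 9 they had 16.2%, 21.04% and 27.6% against 37.8%, 44.3% and 51.3% (limma adjusted p = 0.000657), and the chromosome 16 window at 53673001 to 53674000 had 53.1%, 59.7% and 74.9% against 77.9%, 81.5% and 84.0% (limma adjusted p = 0.00127).

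**Figure D4:**
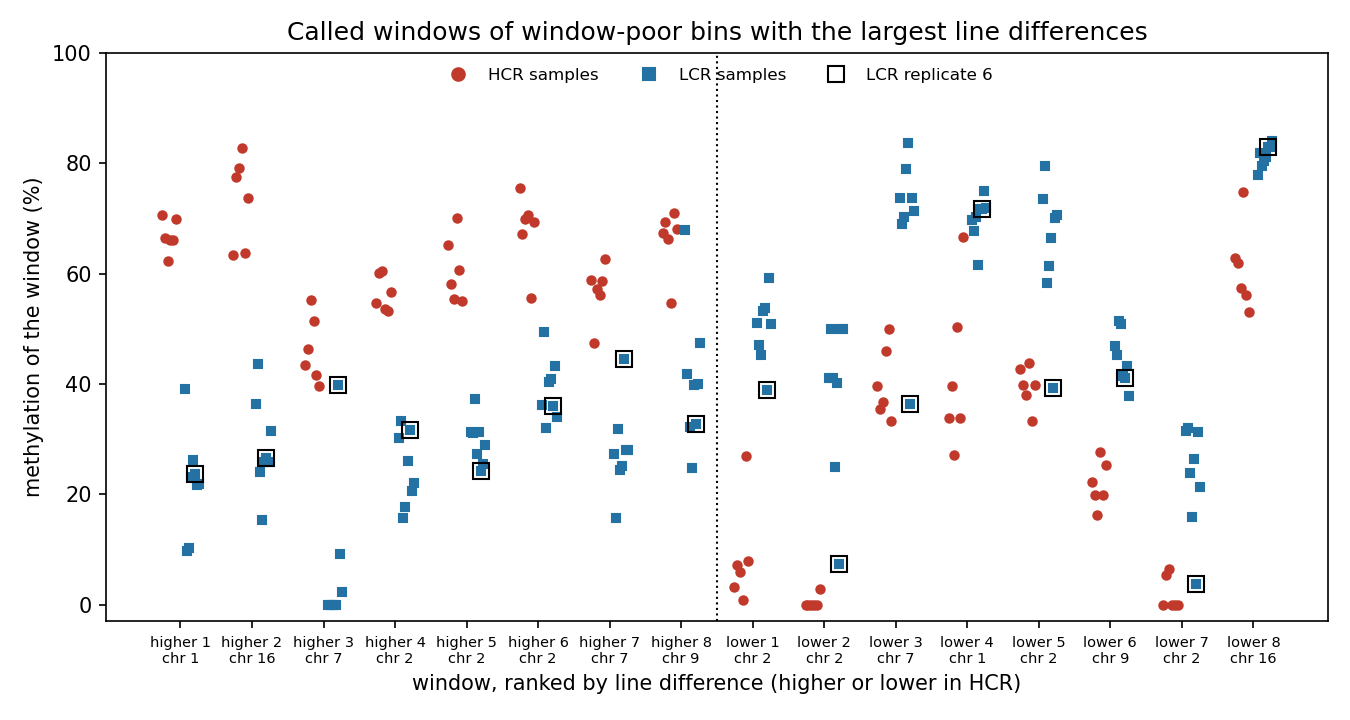
Methylation (y axis, %) of each HCR sample (red circles, n = 6) and LCR sample (blue squares, n = 8) in the 16 called windows with the largest differences, 8 higher (left) and 8 lower (right) in HCR, ranked by the difference and labelled by chromosome. Black frames mark LCR replicate 6, which stood at 39.7% in the window marked higher 3, at 36.4% in lower 3 and at 7.41% in lower 2, near or within the HCR values.

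LCR replicate 6 stood nearer to HCR than its line did in parts of chromosomes 2 and 7, an observation made after the values were seen. Of the 7 called window-poor windows between 85 and 100 Mb of chromosome 2 it was the LCR sample nearest to HCR in 4, and no other LCR sample was in more than 1. Of the 5 called windows between 75 and 81 Mb of chromosome 7 it was so in 3, and LCR replicate 7 in the other 2. Over all 64 called windows it was nearest in 13, where the other LCR samples were nearest in 4 to 12. Its values were within the HCR range in 9 of the 64 windows, and those of the other LCR samples in 2 to 6. The same counts were reached on the other side by HCR replicate 1, the HCR sample nearest to LCR in 13 windows and within the LCR range in 9. Without LCR replicate 6, 52 window-poor windows were called, 27 higher and 25 lower in HCR.

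Averaged over whole bins, line differences were small and mostly positive. The bin difference had a median of 0.669 points in the 633 window-poor bins, with quartiles of -0.110 and 1.39, and 453 bins (71.6%) were higher in HCR. In the other autosomal bins the median was 1.10 points and 91.9% were higher in HCR. By limma on bin means, with adjustment over all 2457 bins, 16 window-poor bins (2.53%) were called, 13 higher and 3 lower in HCR. Of all bins tested 2.56% were called, 2.44% higher and 0.122% lower. An unadjusted p under 0.05 was found in 120 window-poor bins (19.0%), against 28% of all bins. After centring each sample 13 window-poor bins were called, 3 higher and 10 lower. The number of called bins also hung on single samples: it was 68 without HCR replicate 3, 42 without LCR replicate 1 and 5 to 12 without any one of the other samples. Averaging over all windows of the table left 4.

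The last bin of chromosome 1, from 260000001, had the lowest p. HCR samples had 35.5%, 37.8% and 41.7% and LCR samples 31.03%, 32.2% and 34.0%, with a difference of 5.95 points (SE 0.776; limma adjusted p = 0.000146) over 15 windows, 3 of them called. The largest bin difference was at 63000001 to 64000000 on chromosome 14, with 49.2%, 58.0% and 61.5% in HCR and 45.6%, 48.3% and 52.1% in LCR (7.76 points, SE 1.45; limma adjusted p = 0.00773). This bin held 0 called windows, and its lines overlapped through HCR replicate 1.

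Bins at 107000001 to 108000000 on chromosome 4 and at 30000001 to 31000000 on chromosome 5 were called as well, with 6.19 and 4.79 points (limma adjusted p = 0.00558 and 0.00773) over 5 and 8 windows. Both, like the next, had fewer than 10 windows and were chosen for mention after their values were seen. No HCR sample overlapped an LCR sample in either. Of the 3 called bins that were lower in HCR, the one at 78000001 to 79000000 on chromosome 7 had 52.7%, 54.7% and 58.0% in HCR and 54.9%, 61.1% and 65.7% in LCR (-5.92 points, limma adjusted p = 0.0119). LCR replicate 6 was its lowest LCR sample, and it held 2 called windows, both lower in HCR. The other two were at 61000001 to 62000000 on chromosome 13 (-3.34 points, limma adjusted p = 0.0441) and at 17000001 to 18000000 on chromosome 8 (-2.72 points, limma adjusted p = 0.0441). The lines did not overlap in the last of these. Among bins with at least 10 windows, some of the 3 largest differences of a direction were not called. These were 65000001 to 66000000 on chromosome 5 (3.63 points, limma adjusted p = 0.0690) and 85000001 to 86000000 on chromosome 7 (-2.84 points, limma adjusted p = 0.0754). The lines overlapped in both.

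**Figure D5:**
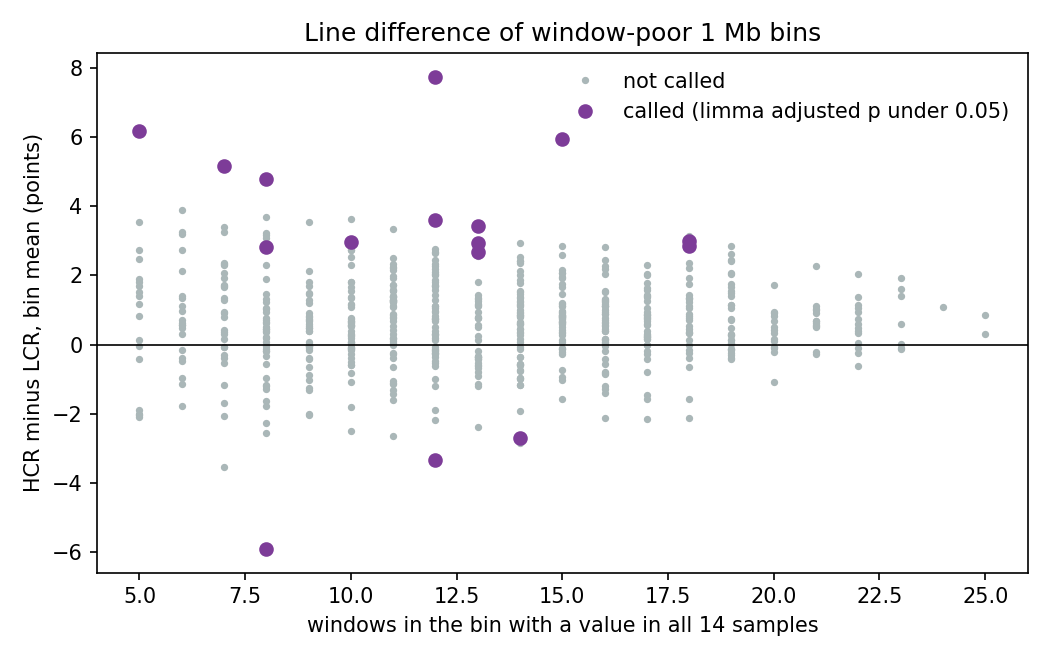
Line difference of each window-poor 1 Mb bin (y axis, HCR minus LCR in percentage points of the bin mean) against its number of windows with a value in all 14 samples (x axis), for 633 bins. The 16 called bins are in purple, 13 above and 3 below 0, and differences spread more widely in bins with few windows.

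Samples of one line resembled each other slightly more than samples of different lines. Over the window-poor windows, the absolute difference between 2 samples averaged 6.13 points for pairs from different lines, 5.95 for HCR pairs and 5.67 for LCR pairs. Pairs from different lines exceeded pairs of one line by 0.361 points (p = 0.000333 by a one-sided exact permutation test, its smallest possible value). LCR samples were closer to each other than HCR samples and gave more pairs, and the part of this in the difference was not tested. In the other autosomal windows it was 0.367 points. The nearest sample was of the same line for 8 of 8 LCR samples but for 1 of 6 HCR samples, HCR replicate 3. LCR replicates 1 and 4, which lacked a value in 1.57% and 2.07% of window-poor windows, were the nearest sample of the other 5 HCR samples, and the part of missing values in this was not tested. No 2 samples held the same values, since the closest differed by 4.60 points.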

How the data were processed

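Per the labels' protocols, RRBS libraries were made with a Diagenode kit from 100 ng of DNA after MspI digestion, and pools were bisulfite converted and amplified. Per the submitters' processing notes, FastQC, Trim Galore 0.6.10, Bismark and Bowtie2 were used with the rn7 build. The deposited table gives percent methylation per library in windows of 1000 bp, per the file headers. For the forming of windows and the coverage minimum, the sources used here give no rule. Genes at the windows were not analysed here, because the gene table at hand is of GRCr8. The members, classes and tests were chosen with earlier results of these data known.

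Columns were matched by library name, and 0 sample columns were unused. Windows were compared with limma 3.58.1 in R 4.3.3 on log2((level + 0.01)/(1 - level + 0.01)), with a variance trend, line as the only factor and Benjamini-Hochberg adjustment over all 135802 windows with a value in all samples. Bins with at least 5 such windows were compared likewise on mean percent levels. Single values were compared with exact permutation tests of the line labels, or of signs within samples (Python 3.11.15, numpy 2.4.6, scipy 1.17.1). Named windows are the 8 called members with the largest difference in each direction. Named bins, among those with at least 10 such windows, are the 3 highest, the 3 lowest, the 3 with the largest difference each way and called ones; 3 called bins with fewer windows were chosen after their values were seen. On simulated data with the means and spreads of the 135802 windows, limma called 56 of 100 member windows shifted by 1 unit of log2 logit and 98 of 100 shifted by 2, besides 7 unchanged windows. Alternatives were limits of 20 and 40 windows, 500 kb bins with 15 or fewer windows, all windows of the table, centring, an offset of 0.05, untransformed levels, autosomes only, a minimum difference of 10 points, no moderation, each sample's count of missing windows as covariate, bins weighted equally, a minimum of 10 windows per bin, a replicate block and every sample left out in turn. Leaving out the last bin of each chromosome and fitting the 12 block samples unblocked were added after seeing the data.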

Additional observations from a re-analysis of the deposited data

Results flagged for a closer look

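A sample far from the rest of its line was looked for in 44 sets of values, library measures and named windows by line, and was found in 5. The limit used would flag about 1 set of 20 by chance in normal values that were not selected. Most sets here were named windows chosen from these data for large line differences, and some held values at 0. That rate therefore does not apply, and the count of 5 cannot be set against it. LCR replicate 6 was set apart in 2 windows of chromosome 7. It had 39.7% at 75034001 to 75035000, where the other LCR samples had 1.62% ± 3.40 (SD, n = 7), and 36.4% at 78792001 to 78793000, where they had 74.4% ± 5.18 (SD, n = 7). HCR replicate 4 had 54.8% in the window at 9983001 on chromosome 9 and the other HCR samples 66.2% to 71.0%. HCR replicate 5 had 26.9% in the window at 95380001 on chromosome 2 and the others 0.917% to 7.93%. In the window at 86533001 on chromosome 2 HCR replicate 6 had 2.88% and the others 0, where any single value above 0 would have been flagged.

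The gap in level between window-poor and other bins differed between the lines by an amount at the edge of the test. The difference was -0.492 points in HCR relative to LCR (exact permutation p = 0.049). The call was lost without any one of 11 samples. It was also lost with a limit of 20 windows per bin (-0.322 points), with all windows of the table (-0.457) and with the replicate block (-0.406).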

How the results depend on the processing

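Between window-poor and other bins, the gap in level and the shares of the classes under 10% and at 70% or more, the share without a value, and the sample distance between lines, kept direction and call in every alternative run for them; the gap ran from 13.6 to 18.3 points. The call on the narrower gap in HCR was lost with a limit of 20 windows (-0.322 points), with all windows of the table (-0.457) and with the replicate block (-0.406), and leaving out samples gave -0.653 to -0.421. The line difference in mean level was -0.449 points after centring and 0.688 with the covariate, where it passed, and 0.507 to 0.874 without single samples. Centring takes 1.12 points from the line difference in mean level and from that of each class alike. It left -0.875 points under 10% and 0.186 at 10 to under 30%. From 30% upwards the classes had -0.148, -0.491 and -0.631 points. The class at 70% or more lost its call with a limit of 20 windows (0.503), 500 kb bins (0.331), all windows (0.456), the covariate (0.487) and the replicate block (0.530), and ran from 0.422 to 0.592 without single samples. The class under 10% passed with a limit of 40 windows (0.262) and ran from 0.185 to 0.297 without single samples, passing without LCR replicate 1. The line difference in the share without a value was 1.44 points with the replicate block and -1.43 to 0.943 without single samples. Called windows numbered 64, 38 higher and 26 lower in HCR. They were 23 (13 and 10) with a limit of 20 windows and 122 (72 and 50) with one of 40, which change the windows counted. Centring gave 23 higher and 42 lower. Leaving out samples gave 40 to 61 calls, 23 to 38 higher and 17 to 25 lower, fewest without HCR replicate 2, and 33 of the 64 windows were kept in all 14 of those fits. Called bins numbered 34 with 500 kb bins, 4 with all windows and 5 to 68 without single samples. Replicate numbers did not pair the samples: over window-poor windows the deviations of same-numbered samples correlated at -0.017 to 0.043, and 1 of 6 HCR samples correlated best with its own number. With the replicate block 5 windows (4 higher, 1 lower) and 8 bins were called, against 37 windows (21 and 16) and 6 bins in the same 12 samples unblocked. No named window changed direction. Without the last bins 61 windows and 15 bins were called. Read depth is unknown, so no value carries a counting error.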

Other observations

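Unmethylated windows of window-poor bins came in short runs. The 1116 windows with a mean under 10% formed 713 runs of adjacent windows, and 298 of these runs were 2 windows or longer and held 62.8% of the windows, against 61.3% in the other autosomal bins. The longest, at 52898001 to 52904000 on chromosome 14, had 6 windows with means from 1.17% to 2.61%, and its highest value in any sample was 4.73%. Elsewhere on the autosomes the longest run was 11 windows.

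Windows with a value missing in some sample were more methylated than those with all values. In window-poor bins the 5103 such windows averaged 55.9%, over the samples that had a value, against 49.5%. In the other autosomal bins they averaged 49.2% against 34.0%.

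Among the 8 window-poor bins with more than 1 called window, one at 16000001 to 17000000 on chromosome 8 held 3 calls in 11 windows, 1 higher and 2 lower in HCR. The pair at 9507001 to 9509000 on the same chromosome was adjacent and higher in HCR in both windows, by 14.7 and 15.7 points.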
